A study of Homo sapiens with 39 samples.

Results

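The genes described here are 10 genes of base excision and alkylation repair, MGMT, ALKBH3, MPG, OGG1, UNG, APEX1, PARP1, XRCC1, LIG3 and POLB, found by their symbols among the 20802 gene targets of the AmpliSeq panel. All 10 had a target, and 9 of them had enough counts to be tested, the exception being POLB. They were followed in 39 libraries of HepaRG™ cells, an established human hepatic progenitor cell line used here in its differentiated form, which holds hepatocyte-like and cholangiocyte-like cells. The cultures received a chemical or its vehicle daily on 3 days. Per the study, cells for RNA were collected hours after the last dose, before a full day had passed. The RNA of 3 cultures was pooled into 1 library per condition, so that no condition has a replicate. The DDI (DNA damage-inducing) chemicals were AFB1 (aflatoxin B1) at 0.25, 1 and 2.5 µM, 2NF (2-nitrofluorene) at 10, 50 and 250 µM, CISP (cisplatin) at 2, 5 and 10 µM and ETP (etoposide) at 0.5, 2.5 and 10 µM, all in DMSO, and MMS (methyl methanesulfonate) at 50, 100 and 200 µM in water. The non-DDI chemicals were COL (colchicine) at 0.05, 0.1 and 0.3 µM in DMSO and, in media, AMP (ampicillin trihydrate) at 1, 3 and 10 mM, 2DG (2-deoxy-D-glucose) at 1.25, 5 and 10 mM, ASC (sodium ascorbate) at 1, 2 and 10 mM and NaCl at 1, 2.5 and 10 mM. The 9 controls were 4 DMSO, 4 media and 1 water library, and AFB1 and COL shared a control. MMS was the only chemical in water, so that the effect of MMS and of its control set cannot be told apart from a difference between experiments when MMS is compared with other chemicals.

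Base excision repair removes small base lesions. A glycosylase such as MPG, OGG1 or UNG cuts out a damaged base, the endonuclease APEX1 opens the strand at the empty site, POLB fills the gap and LIG3, held by the scaffold XRCC1, seals the nick, while PARP1 senses the break. MGMT takes alkyl groups off the oxygen of guanine and is consumed in the act, and ALKBH3 removes methyl groups from adenine and cytosine by oxidation. MMS methylates DNA bases directly, which makes it the chemical in this set whose main lesions are textbook substrates of MPG and ALKBH3. MMS was therefore compared with its water control and with the other 9 chemicals.

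The promoters of 3 genes called in a trend test over MMS concentration, described later, are printed here. MGMT and OGG1 were called lower against the water control. PARP1 was not, and was called only for a slope below the mean slope of the other chemicals. The windows run from 250 bases before to 50 bases after the annotated start, from RefSeq on GRCh38.p14. They are written on the strand of the gene, with every GC box (GGGCGG, both strands) in capitals. MGMT lies at chr10:129466991-129467290 on the plus strand, OGG1 at chr3:9749702-9750001 on the plus strand and PARP1 at chr1:226408044-226408343 on the minus strand.
MGMT: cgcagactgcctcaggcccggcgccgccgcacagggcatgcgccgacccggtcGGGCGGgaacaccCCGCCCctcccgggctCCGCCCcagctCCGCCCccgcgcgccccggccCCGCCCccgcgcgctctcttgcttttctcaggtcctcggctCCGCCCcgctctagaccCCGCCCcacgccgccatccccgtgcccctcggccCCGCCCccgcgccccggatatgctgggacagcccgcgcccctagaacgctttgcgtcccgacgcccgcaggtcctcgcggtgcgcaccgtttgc
OGG1: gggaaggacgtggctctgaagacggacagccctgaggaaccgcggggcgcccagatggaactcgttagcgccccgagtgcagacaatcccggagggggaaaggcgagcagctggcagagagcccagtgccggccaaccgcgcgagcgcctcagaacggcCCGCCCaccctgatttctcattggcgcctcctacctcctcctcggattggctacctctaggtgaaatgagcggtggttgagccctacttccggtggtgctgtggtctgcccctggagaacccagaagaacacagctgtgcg
PARP1: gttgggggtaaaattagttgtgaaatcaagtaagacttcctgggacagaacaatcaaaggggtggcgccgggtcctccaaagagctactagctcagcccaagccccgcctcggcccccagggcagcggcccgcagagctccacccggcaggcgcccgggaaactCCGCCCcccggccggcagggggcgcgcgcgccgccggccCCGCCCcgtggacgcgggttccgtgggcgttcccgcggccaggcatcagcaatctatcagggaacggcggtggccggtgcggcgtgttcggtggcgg
The MGMT window held 8 GC boxes, the PARP1 window 2 and the OGG1 window 1, and 45.0% of the 35116 RefSeq promoter windows of this length held at least 1. The CCAAT box (CCAAT, both strands) was found in OGG1 at 2 places and in neither MGMT nor PARP1, against 34.6% of all windows. G and C made up 78.7% of the MGMT window, 64.3% of OGG1 and 70.0% of PARP1, with a median of 58.7% over all windows. RefSeq windows were matched for 9 of the 10 genes. A match of letters is a description of the sequence, and whether a factor bound there was not tested.

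The deposited counts per library ranged from 8504699 to 16425527, with 8864858 to 12606611 in the water control and the 3 MMS libraries. Expression is given as RPM (counts scaled to the library total), and because each gene is read from a different amplicon, RPM is compared between libraries and not between genes. MGMT had 296 to 751 counts per library, PARP1 2436 to 5350 and APEX1 1335 to 3484, while OGG1 had 289 to 772, UNG 236 to 777, LIG3 196 to 459 and ALKBH3 147 to 362. POLB had 0 to 8 counts with a median of 2, was listed at 0 in some libraries, and supports no statement on a change. Intervals from counts cover counting error only.

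The levels of these genes differed between the 9 controls. MGMT ranged from 38.4 to 46.0 RPM with a median of 43.5, PARP1 from 290.8 to 338.7 with a median of 309.4, and LIG3 from 24.6 to 29.7 with a median of 27.9. UNG ranged from 26.1 to 49.9 RPM with a median of 34.3, APEX1 from 148.7 to 237.6 with a median of 188.9 and OGG1 from 32.8 to 52.3 with a median of 41.5. XRCC1, the scaffold, separated the vehicles: the 4 DMSO controls held 36.5 to 39.9 RPM (mean 38.0 ± 1.53, SD, n = 4) and the 4 media controls 40.4 to 50.3 (mean 45.7 ± 4.07, SD, n = 4). XRCC1 was the only one of the 9 tested genes without overlap between those vehicles, and 13.3% of all 14107 genes tested had no overlap. Water has 1 control, so no difference between water controls can be given. The largest difference in log2(RPM + 1) between 2 DMSO or 2 media controls is the control limit of a gene, for MMS too. It was 0.19 for PARP1, 0.23 for MPG, 0.25 for MGMT, 0.26 for LIG3, 0.31 for XRCC1, 0.33 for OGG1, 0.49 for ALKBH3, 0.55 for APEX1 and 0.59 for UNG.

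OGG1, the glycosylase for oxidised guanine, had the largest difference of the 9 genes in MMS against the matched control. It stood at 52.3 RPM in the water control, 42.2 at 50 µM, 36.9 at 100 µM and 32.6 at 200 µM MMS. The water control was the highest and the 200 µM library the lowest of all 39 libraries, and the level was lower at each step. Of all genes tested, 1.77% had their highest value in the water control, 5.45% had their lowest in MMS 200 µM, and 6.18% were lower at every step from water to 200 µM. The log2 ratios of OGG1 to the water control were -0.30 (95% counting interval -0.49 to -0.13), -0.49 (-0.68 to -0.33) and -0.66 (-0.89 to -0.48), of which the latter 2 passed the control limit. Over the 3 concentrations as 1 term, OGG1 was lower by a log2 difference of -0.58 with a standard error of 0.19 (edgeR quasi-likelihood test, adjusted p = 0.1125), which did not pass the threshold of 0.05 after adjustment over 14107 genes. The size of the OGG1 ratio rests on the control: against the mean of all 9 controls the log2 ratio at 200 µM was -0.36 in place of -0.66.

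MGMT, the methyltransferase that repairs alkylated guanine, stood at 43.1 RPM in the water control, 38.0 at 50 µM, 31.6 at 100 µM and 33.4 at 200 µM MMS. The water control lay within the range of the other controls. The 3 MMS libraries lay below all 9 controls, at 50 µM only narrowly, since the lowest control held 38.4 RPM. The share of all genes with the 3 MMS libraries below every control was not computed. The log2 ratios were -0.18 (95% counting interval -0.38 to 0.01), -0.44 (-0.64 to -0.25) and -0.36 (-0.58 to -0.16), the latter 2 past the control limit. The fitted log2 difference was -0.42 with a standard error of 0.18 (edgeR, adjusted p = 0.237). The demethylase ALKBH3 stood at 22.2 RPM in water and at 25.4, 23.0 and 26.7 in MMS, within its control limit, with a fitted difference of 0.08 and a standard error of 0.22 (edgeR, adjusted p = 0.902).

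MPG, the glycosylase that excises methylated purines, stood at 50.0 RPM in water and at 53.6, 49.6 and 42.6 at 50, 100 and 200 µM MMS. The value at 200 µM was the lowest of the 4 and its log2 ratio of -0.22 lay just within the control limit. The fitted difference of MPG was -0.13 with a standard error of 0.17 (edgeR, adjusted p = 0.748). UNG, which removes uracil, stood at 38.6 RPM in water and at 38.7, 33.5 and 34.7 in MMS, with a fitted difference of -0.21 and a standard error of 0.21 (edgeR, adjusted p = 0.658).

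Among the genes acting after base removal, PARP1 was close to its control at the lower concentrations and lower at 200 µM. It stood at 338.7 RPM in water, 333.2 at 50 µM, 334.7 at 100 µM and 274.8 at 200 µM MMS, the last being the lowest PARP1 value of the 39 libraries. Its log2 ratio at 200 µM was -0.30 (95% counting interval -0.37 to -0.23), past the control limit, and -0.18 against the mean of all 9 controls, within it. LIG3 went the other way, from 26.3 RPM in water to 33.4, 30.2 and 33.1 in MMS, with log2 ratios of 0.34, 0.19 and 0.32. The first and the last passed its control limit, while the fitted difference was 0.20 with a standard error of 0.18 (edgeR, adjusted p = 0.603). APEX1 stood at 201.1 RPM in water and at 218.9, 201.2 and 206.8 in MMS. Its fitted difference was -0.04 with a standard error of 0.20 (edgeR, adjusted p = 0.945) and 0.06 when scaled by library totals alone, so that no direction can be given. XRCC1 stood at 49.9 RPM in water and at 46.5, 51.6 and 44.6 in MMS, with a fitted difference of -0.16 and a standard error of 0.16 (edgeR, adjusted p = 0.643).

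**Figure D1:**
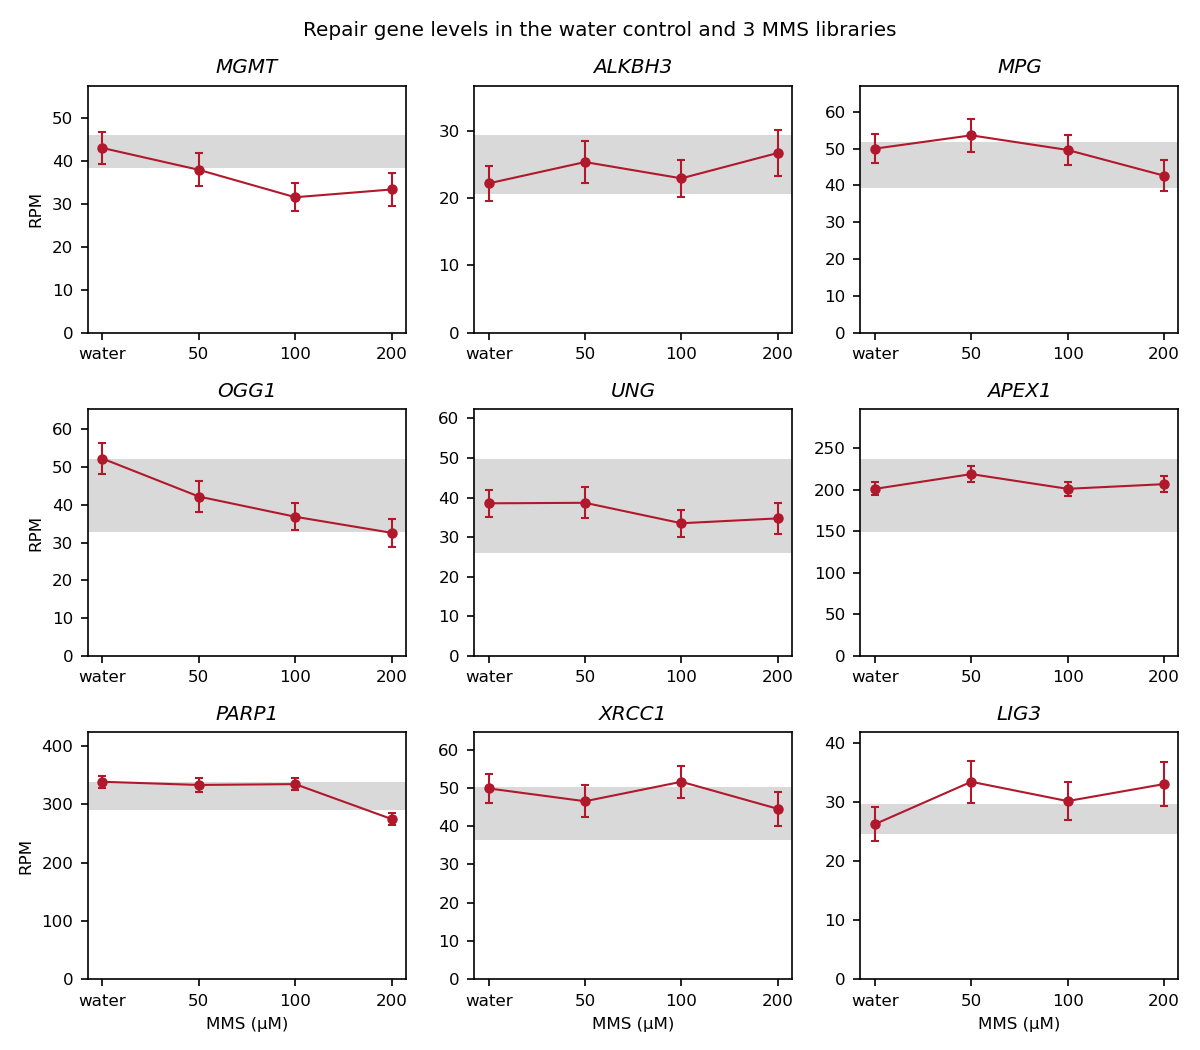
RPM of 9 repair genes (vertical axis, from 0) in the water control and at 50, 100 and 200 µM MMS (horizontal axis). Points are single libraries, bars are approximate 95% counting intervals, and the grey band spans the 9 controls. OGG1 goes from 52.3 to 32.6 RPM, and MGMT lies below the band in the 3 MMS libraries, narrowly so at 50 µM. The share of all genes that lie below their band in these libraries was not computed.

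By the count of genes past their control limits, MMS libraries held 2 of the 9 tested genes lower at 100 µM (OGG1 and MGMT) and 3 at 200 µM (with PARP1), and none lower at 50 µM. Of all 14107 genes tested, 3.87% were lower past the limit at 50 µM, 13.1% at 100 µM and 12.8% at 200 µM. LIG3 was the 1 gene above its limit at 50 µM and at 200 µM, where 5.82% and 17.4% of all genes were, and no gene was above it at 100 µM, where 18.2% were.

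In the fit over the 3 concentrations together, 0 of the 9 genes passed the test of MMS against its water control, where 1.14% of all genes did (161 of 14107, 19 higher and 142 lower). At an unadjusted p under 0.05, 2 of the 9 genes were lower, OGG1 and MGMT, and 10.7% of all genes were. With DESeq2 in place of edgeR no member was called either. A test of the slope over the concentration level called OGG1, at -0.26 per level with a standard error of 0.07 (edgeR, adjusted p = 0.0109), and MGMT, at -0.18 with a standard error of 0.06 (edgeR, adjusted p = 0.0438). PARP1 had a slope of -0.13 with a standard error of 0.05 (edgeR, adjusted p = 0.0537). In that test 10.4% of all genes were called lower, so that 2 of 9 genes is read against a transcriptome in which many genes followed the MMS concentration. Without the 50 µM library OGG1 was called at -0.69 (edgeR, adjusted p = 0.0228), where 7.05% of all genes were called lower. Over the alternatives other than the slope, the adjusted p of this comparison ran from 0.0228 to 0.319 for OGG1 and from 0.000882 to 0.479 for MGMT.

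Against the mean of the other 9 chemicals, each taken relative to its own control, MMS gave OGG1 a log2 difference of -0.53 with a standard error of 0.20 (edgeR, adjusted p = 0.279). PARP1 differed by -0.25 with a standard error of 0.15, MGMT by -0.28 with a standard error of 0.20 and UNG by -0.27 with a standard error of 0.22 (edgeR, adjusted p of 0.547, 0.613 and 0.671). LIG3 and ALKBH3 were higher in MMS by 0.14 and 0.18, within their standard errors of 0.19 and 0.23. None of the 9 genes was called, as against 0.397% of all genes. The slope of PARP1 over the concentration level was lower in MMS than in the mean of the other chemicals by -0.16 with a standard error of 0.05 (edgeR, adjusted p = 0.0431), and that of OGG1 by -0.24 with a standard error of 0.07 (edgeR, adjusted p = 0.0544), in a test that called 5.08% of all genes lower. With all 9 controls taken as 1 group, MGMT was called against the controls (-0.46, edgeR, adjusted p = 0.000882), where 16.2% of all genes were called lower, and against the other chemicals (-0.33, edgeR, adjusted p = 0.00731), where 15.0% were, and OGG1 against the controls (-0.31, edgeR, adjusted p = 0.0469). That fit leaves the differences between control sets in the estimates. Over the alternatives other than the slope, the adjusted p against the other 9 chemicals ran from 0.00731 to 0.880 for MGMT, from 0.0644 to 0.585 for OGG1 and from 0.114 to 0.834 for PARP1.

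Against the other 4 DDI chemicals alone, OGG1 differed by -0.63 with a standard error of 0.21 (edgeR, adjusted p = 0.241). OGG1 had the largest difference of the 9 genes in each of the 3 MMS comparisons, but with all 9 controls as 1 group it was -0.31, -0.22 and -0.20 and smaller than that of MGMT, at -0.46, -0.33 and -0.21. UNG differed by -0.34, XRCC1 by -0.27 and PARP1 by -0.26, with standard errors of 0.23, 0.18 and 0.16 (edgeR, adjusted p of 0.652, 0.635 and 0.614). The value of XRCC1 turned to 0.08 with all 9 controls as 1 group. MGMT differed by -0.17 with a standard error of 0.21. None of the 9 genes was called, and 0.291% of all genes were. Ranked by the mean log2 ratio over 3 concentrations, MMS had the lowest OGG1 of the 10 chemicals, at -0.49, followed by AMP at -0.32, while CISP had the highest at 0.28. MMS had the highest LIG3, 0.28, and the highest ALKBH3, 0.16, followed by ASC (0.21) and 2DG (0.14). For MGMT its mean was -0.32, and AFB1 at -0.42 and 2NF at -0.40 were lower.

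**Figure D2:**
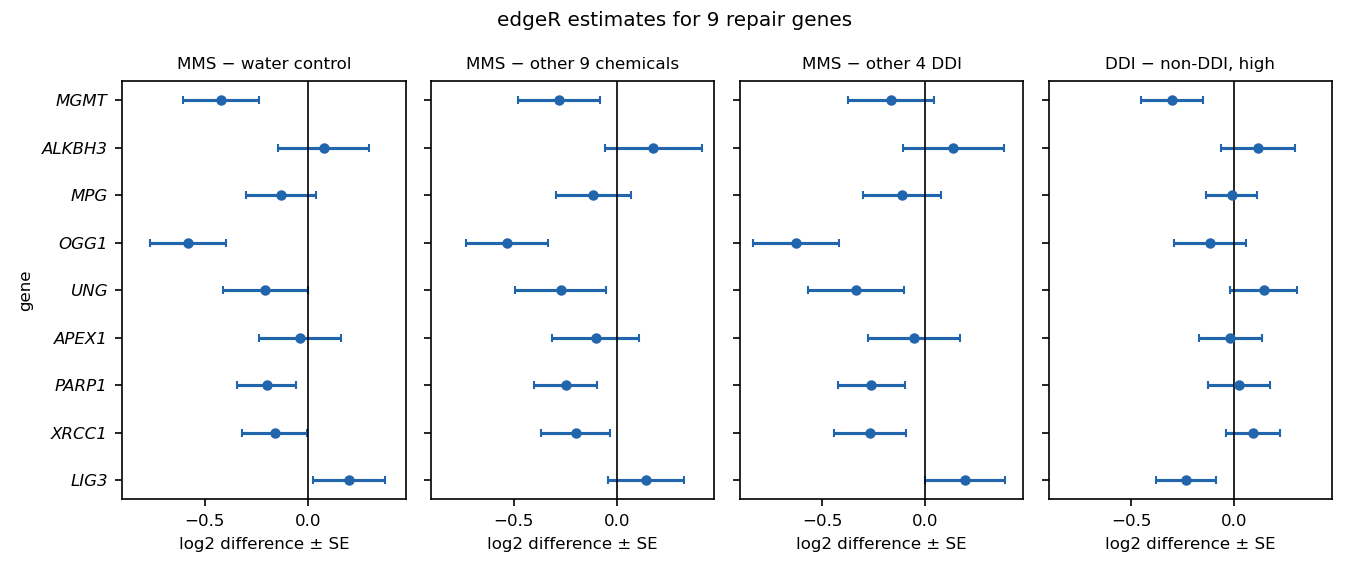
Log2 differences of 9 repair genes from edgeR (horizontal axis, bars are standard errors) for MMS minus its water control, MMS minus the mean of the other 9 chemicals, MMS minus the mean of the other 4 DDI chemicals, and DDI minus non-DDI at the high concentration. OGG1 lies lowest in the 3 MMS panels (-0.58, -0.53 and -0.63), and no gene passed the adjusted threshold in any panel.

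MGMT was the gene that was most often below its control limit, and it was so outside MMS too. It was below the limit in 10 of the 30 treated libraries and above it in none, where 1.23% of all genes were below theirs in at least 10 libraries. AFB1 gave 34.9, 34.5 and 29.5 RPM at 0.25, 1 and 2.5 µM against 44.2 in its control, and 2NF gave 42.2, 30.5 and 32.2 RPM at 10, 50 and 250 µM against 45.9. The lowest log2 ratios were -0.57 for 2NF at 50 µM and -0.57 for AFB1 at 2.5 µM. The others below the limit were ETP at 0.5 µM (-0.27), COL at 0.1 µM (-0.28) and at 0.3 µM (-0.26), AFB1 at 0.25 and 1 µM (-0.34 and -0.35), 2NF at 250 µM (-0.50) and MMS at 100 and 200 µM. These 10 libraries are not independent, since the concentrations of 1 chemical, and likewise AFB1 with COL, are set against the same control. In CISP the log2 ratios were 0.04, 0.10 and -0.15. By class, MGMT was below the limit in 8 of the 15 DDI libraries and 2 of the 15 non-DDI libraries, both COL. COL was the only non-DDI chemical in DMSO, and the share of all genes with such a split was not computed. MGMT was picked here for having the most libraries below its limit, so the split is a description. The class test at the high concentration did not call MGMT (edgeR, adjusted p = 0.679).

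**Figure D3:**
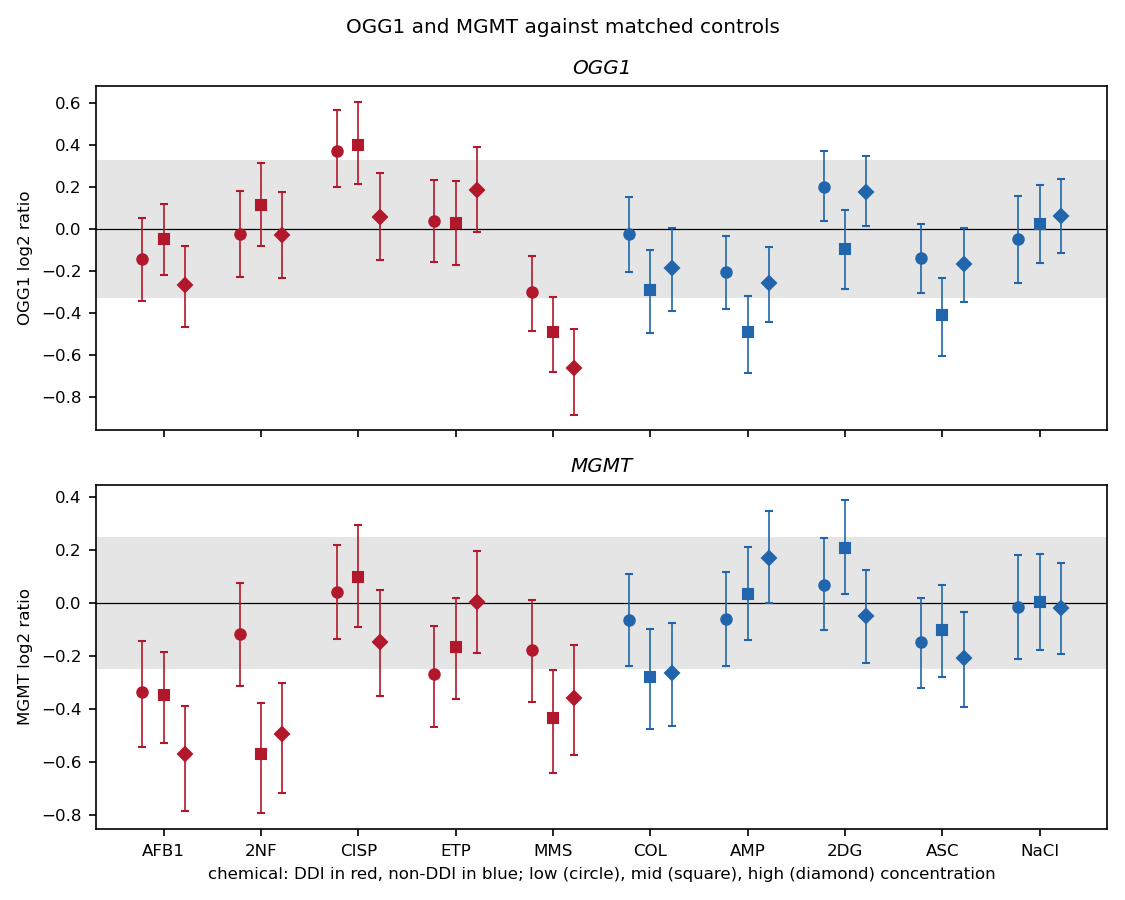
Log2 ratios of OGG1 and MGMT to the matched control (vertical axis) for 10 chemicals (horizontal axis), low, mid and high concentration as circle, square and diamond, DDI in red and non-DDI in blue. Bars are 95% counting intervals and the grey band is the control limit (0.33 for OGG1, 0.25 for MGMT); OGG1 in MMS goes from -0.30 to -0.66, and MGMT is below the band in 10 of 30 libraries.

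At the high concentration the MGMT log2 ratio averaged -0.31 ± 0.24 (SD, n = 5 chemicals) in DDI and -0.08 ± 0.17 (SD, n = 5 chemicals) in non-DDI, and the classes overlapped, from -0.57 to 0.00 and from -0.26 to 0.17. The class difference was -0.30 with a standard error of 0.15 (edgeR, adjusted p = 0.679). LIG3 differed by -0.23 with a standard error of 0.14 (edgeR, adjusted p = 0.768), and the other 7 tested genes by between -0.12 and 0.14. None of the 9 genes was called at the high concentration, and 0.0515% of all genes were. Class and vehicle were nearly confounded. Within DMSO, MGMT averaged -0.30 ± 0.28 (SD, n = 4) in the DDI chemicals at the high concentration, and the non-DDI chemical COL gave -0.26, a value inside their range of -0.57 to 0.00.

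The remaining libraries past a control limit are given by gene. OGG1 was below its limit also in AMP at 3 mM (-0.49) and ASC at 2 mM (-0.41), and above it in CISP at 2 µM (0.37) and 5 µM (0.40). Each of the CISP values is set against a DMSO control of 32.8 RPM, the lowest OGG1 among the controls. PARP1, the break sensor, was above its limit in AFB1 at 1 µM (0.29) and 2.5 µM (0.42) and in ASC at 10 mM (0.36), and stood at 316.7, 359.2 and 394.4 RPM over the 3 AFB1 concentrations against 294.1 in the control. LIG3 was above its limit in 5 libraries, MMS at 50 and 200 µM, CISP at 5 µM (0.41), ASC at 1 mM (0.31) and 2NF at 50 µM (0.27), and below it in AFB1 at 2.5 µM (-0.32). Of all genes, 12.9% were above their limit in at least 5 libraries. XRCC1 was above its limit in 2NF at 250 µM (0.41), CISP at 5 µM (0.34) and AFB1 at 2.5 µM (0.33). MPG was above it in CISP at 5 µM (0.48) and 2DG at 1.25 mM (0.33) and below it in ETP at 2.5 µM (-0.25). APEX1 was above its limit in ASC at 1 mM (0.60), with 0.47 and 0.51 at 2 and 10 mM. ALKBH3 was below its limit in AMP at 10 mM, where it stood at 12.8 RPM against 21.3 in the control, a log2 ratio of -0.69, after 0.13 and -0.04 at 1 and 3 mM. UNG passed its limit in none of the 30 libraries, its highest ratio being 0.51 in 2NF at 10 µM. That limit is set by the media controls, which held 32.8 to 49.9 RPM. The 4 DMSO controls held 26.1 to 34.3 RPM, and 2NF at 10 µM (37.6 RPM) and CISP at 2 µM (38.4 RPM), both in DMSO, lay above them. A UNG within its limit is therefore not shown to be unchanged in DMSO. CISP at 5 µM was past the limit for 4 genes, OGG1, LIG3, MPG and XRCC1, all higher. In that library 10.3% of all genes were above theirs. The CISP control was the lowest control also for MPG (39.3 RPM) and XRCC1 (36.5 RPM), but not for LIG3. In CISP at 5 µM, OGG1 (43.6 RPM) and XRCC1 (46.4 RPM) lay within the range of the controls. MPG (55.1 RPM) and LIG3 (38.4 RPM) lay above every control.

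**Figure D4:**
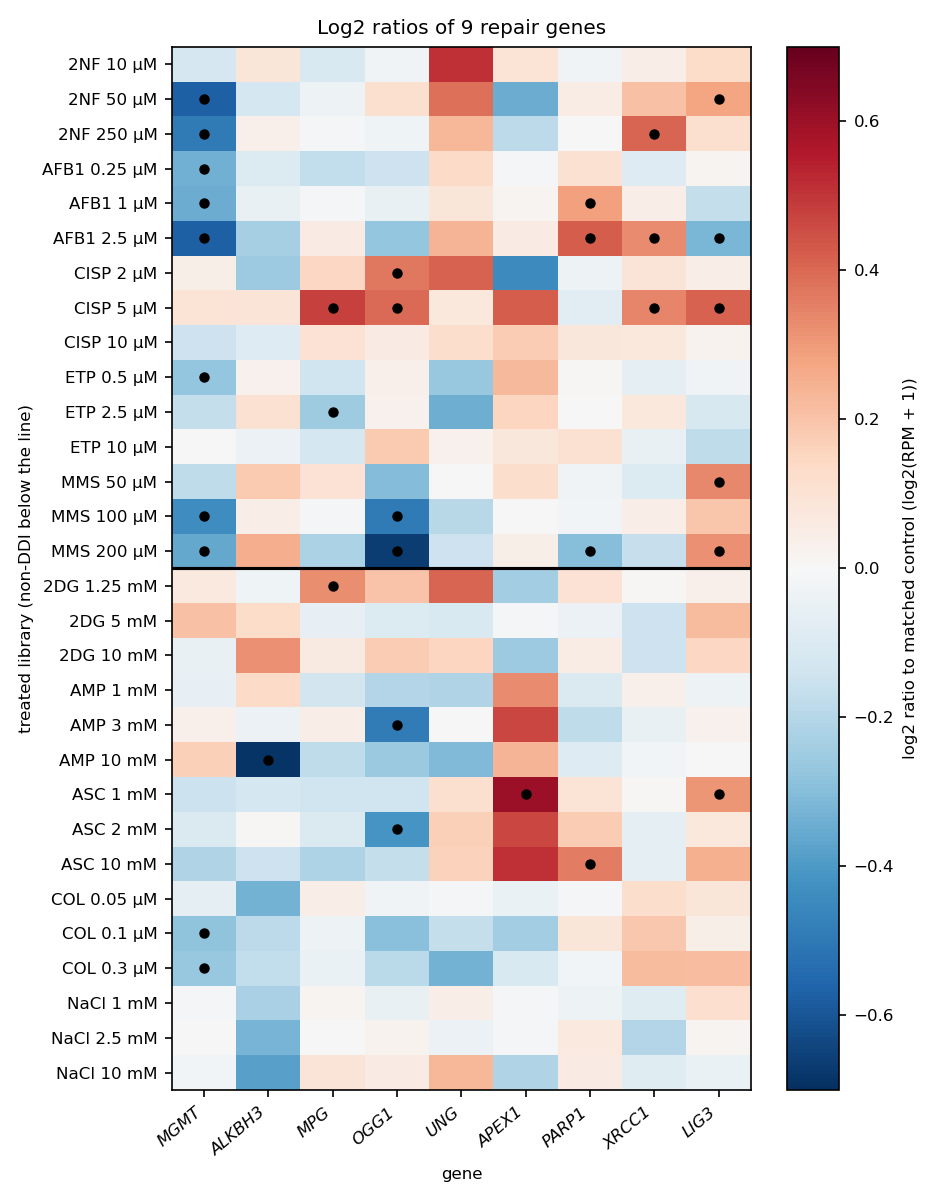
Log2 ratios to the matched control on the log2(RPM + 1) scale (colour, from -0.7 to 0.7) of 9 repair genes (columns) in 30 treated libraries (rows, DDI above the line and non-DDI below it). A black dot marks a ratio past the control limit of its gene; MGMT has 10 dots, all lower, and UNG has none.

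A wider list of 31 genes in or around the same pathways was measured in the same libraries. It held, among others, the glycosylases NEIL2 and NEIL3, the poly(ADP-ribose) glycohydrolase PARG and the long-patch genes PCNA, FEN1 and LIG1. Some of its genes, such as XRCC5, XRCC6 and HMGB1, act mainly outside these pathways, so its median is not that of 1 pathway. In MMS against its water control 0 of these 31 genes passed the test in either direction, 24 were above and 7 below 0, and the median log2 difference was 0.19, beside 0.00 over all genes tested and -0.16 over the 9 tested repair genes above. All 3 genes at an unadjusted p under 0.05 were higher, as were 6.34% of all genes. These 3 were NEIL3 (0.84), NEIL2 (0.72) and PARG (0.62), named after their values were seen, with adjusted p values of 0.276, 0.280 and 0.273 from edgeR. At the high concentration, 0 of the 31 genes passed the class test either, and 6 were higher in DDI at an unadjusted p under 0.05, as were 4.33% of all genes. These 6, named after their values were seen, were PCNA (1.10, edgeR, adjusted p = 0.0684), FEN1 (0.94), LIG1 (0.92), PARP2 (0.55), POLD1 (0.53) and RPA1 (0.33), of which PCNA, FEN1, LIG1, POLD1 and RPA1 also serve DNA replication.

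Marker lists outside repair were also followed in the MMS libraries. The 10 hepatocyte-like markers were all below 0 against the water control with a median log2 difference of -1.55. None was called in edgeR, and 7 were lower at an unadjusted p under 0.05, as were 10.7% of all genes. ALB (albumin) stood at 19228 RPM in water and at 15146, 2299 and 5106 at 50, 100 and 200 µM, the 100 µM value being the lowest of the 39 libraries. The summed level of the 10 markers was 24120 to 48515 RPM in the 9 controls, 26066 in water and 19493, 3634 and 6908 in MMS. Their median was -1.33 in MMS against the other 9 chemicals and -1.04 against the other 4 DDI chemicals. In DDI against non-DDI at the high concentration it was -0.73, with 9 of the 10 below 0. Of the 7 cholangiocyte-like markers 4 could be tested, and 2 of them were called lower in edgeR, where 1.14% of all genes were called in either direction. These 2, named after their values were seen, were SPP1 (-1.35, edgeR, adjusted p = 0.0314) and SOX9 (-1.28, edgeR, adjusted p = 0.0407). KRT19, a keratin of bile duct cells, was not called (-0.76, edgeR, adjusted p = 0.113) and stood at 1150 RPM in water and at 943, 465 and 769 in MMS, and the summed level of the 7 was 465 to 1456 RPM in the controls, 1266 in water and 1013, 501 and 811 in MMS. The 16 proliferation genes had a median of 0.77, with 4 of them below 0 and none called. Of them 5 were higher at an unadjusted p under 0.05 in edgeR, as were 6.34% of all genes. Their summed level was 416 to 1067 RPM in the controls, 1032 in water and 1271, 1963 and 1761 in MMS. The median of the 16 genes was -0.04 in MMS against the other 9 chemicals, as over all genes tested. Against the other 4 DDI chemicals it was -0.42, with 14 of the genes below 0. In DDI against non-DDI at the high concentration it was 0.55, so a higher level was not particular to MMS. MKI67, present in cycling cells, stood at 35.0 RPM in water and at 49.7, 52.9 and 90.0 in MMS, and was not called (0.77, edgeR, adjusted p = 0.418). The 10 p53 targets had a median of 0.42 with none called. The summed level of these 10 was 1368 to 2225 RPM in the controls and 2329, 2994 and 3399 in MMS. Water, at 2225 RPM, was the highest control. In DDI against non-DDI at the high concentration their median was 0.69, and 1 was called, where 0.0515% of all genes were. There 9 were higher at an unadjusted p under 0.05 in edgeR, as were 4.33% of all genes. No marker of these lists was at 0 in every library. In pooled cultures, fewer cells of a type and less RNA per cell cannot be told apart, and the part of these markers in the values of OGG1, MGMT and PARP1 was not tested.

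For each gene, the 3 genes whose log2 ratios followed it most closely over the 30 treated libraries were sought among the 11562 genes that had 10 or more counts throughout. MGMT was followed by ALAD (Pearson r = 0.88), a heme synthesis enzyme, ACBD4 (0.87) and CYP2E1 (0.86), a hepatocyte-like marker of the list above. OGG1 was followed by SMARCA4 (0.89), RBPMS2 (0.88) and SLC22A3 (0.86), and PARP1 by RETSAT (0.75), CROT (0.68) and DDX18 (0.68). APEX1 was followed by STRA13 (0.93), SDC1 (0.92) and MRPL34 (0.92), XRCC1 by PAFAH1B3 (0.87), RAC2 (0.82) and DTYMK (0.81), and MPG by KIAA1191 (0.83), ESRRA (0.80) and COPE (0.79). UNG was followed by RFFL (0.78), MTIF2 (0.77) and ABCB6 (0.76), LIG3 by ANO3 (0.66), GABARAPL1 (0.66) and RRP12 (0.65), and ALKBH3 by RRP7B (0.66), DMAP1 (0.61) and ANKMY1 (0.60). Between the repair genes themselves the highest correlation was 0.50, for MPG and OGG1, and the lowest -0.43, for MGMT and XRCC1. The 30 points share 9 controls and vary in depth, so these values are descriptions.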

How the data were processed

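Whole-transcriptome AmpliSeq data of 39 libraries were used. Reads were mapped by the authors to the panel transcripts (hg19) with the Torrent Mapping Alignment Program, and the counts per amplicon target were deposited. The RPM values deposited beside them are these counts per total of the library, and per the study nothing else was normalized. RPM recomputed from the counts differed by at most 0.000538. Of 20812 targets, 10 spike-in targets with no counts and 6 annotation columns were left out. Groups, vehicles and controls came from the sample labels and the study's methods.

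Log2 ratios were log2(RPM + 1) in a treated library minus its matched control, a scale that understates changes of low genes, with 95% conditional binomial (Clopper-Pearson) intervals. Counts were tested with edgeR 4.0.16 in R 4.3.3 (TMM, filterByExpr, quasi-likelihood, Benjamini-Hochberg adjustment over all genes tested, threshold 0.05): 1 fit of 39 libraries with 9 control sets as a block and a term per chemical (20 residual degrees of freedom), and 1 class fit of 19 libraries with a term per class (8 residual degrees of freedom). In the first fit the 3 concentrations of a chemical stand in for replicates, and p values measure the spread within chemicals between concentrations, not between cultures. Alternatives were RLE or library totals, other count filters, DESeq2 1.42.0, a slope over concentration level, other uses of the controls, and libraries or chemicals left out. On simulated counts with a log2 change of 1, the test of MMS against its water control found 27.0% of the changed genes. The test against the other 9 chemicals found 20.0% and the class test 65.5%. The changed genes were drawn from all genes tested, each with its own spread, so these shares are not those of the 9 tested repair genes. Against the water control the standard errors of those 9 genes were 0.14 to 0.22. Smaller changes, such as those of the 9 tested repair genes, were not simulated. A gene that was not called is therefore not shown to be unchanged. The members and gene lists were chosen with earlier results of these data known. By rule, all 10 genes, MKI67, ALB and KRT19 are named whether called or not, with any gene of the wider repair list that passed an MMS test (none did) and the 3 closest genes of each gene by Pearson correlation. Other genes given with values were chosen after their values were seen. Promoter windows are from RefSeq (GRCh38.p14), which is not the build of the files, and no other coordinates are given. Python 3.11.15 was used with pandas 2.3.3, numpy 2.4.6, matplotlib 3.10.9 and scipy 1.17.1. With 8504699 to 16425527 counts per library and no molecular identifiers, depth limits genes of few counts most.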

Additional observations from a re-analysis of the deposited data

Results flagged for a closer look

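Among 40 groups of 4 or 5 libraries (10 genes in the DMSO controls, the media controls and each class at the high concentration), 2 held a library far from the others, and chance gives about 1 in 20. PARP1 in the DMSO control for CISP stood at 336.6 RPM, while the other 3 DMSO controls were between 294.1 and 300.7 RPM, and the CISP ratios of PARP1 are set against this library. ALKBH3 in the media control for NaCl stood at 29.4 RPM, while the other 3 media controls were between 20.6 and 21.6 RPM. The 3 NaCl ratios of ALKBH3, -0.22, -0.32 and -0.38, are set against it and lay within the control limit of 0.49, which this library sets.

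The slope of PARP1 over the concentration level was lower in MMS than in the mean of the other 9 chemicals by -0.16 (edgeR, adjusted p = 0.0431). The MMS ratios were -0.02 at 50 and 100 µM and -0.30 at 200 µM, while in AFB1 PARP1 had ratios of 0.11, 0.29 and 0.42.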

How the results depend on the processing

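Each condition has 1 library, so no difference has a replicate check, MMS alone was given in water, and depth limits POLB. No paired analysis was possible because replicate numbers pair no libraries here, and the matched control set is already a block in the edgeR fits. The number of genes called depended strongly on the setting. For MMS against its water control it was 161, and became 92 with library totals, 344 with DESeq2, 2140 for the slope over level and 4102 with all 9 controls as 1 group, with 16 to 1375 when 1 MMS library was left out. Against the other 9 chemicals it was 56, and became 101 with DESeq2, 909 for the slope and 4102 with all 9 controls as 1 group, with 17 to 716 when a library or chemical was left out. Against the other 4 DDI chemicals it was 41, and became 106 with DESeq2, 586 for the slope, 20 with controls pooled by vehicle and 3938 with all 9 controls as 1 group, with 19 to 500 on leaving out. For DDI against non-DDI it was 7, and became 0 with at least 10 counts in every library (946 genes at an unadjusted p under 0.05 in edgeR), 96 with DESeq2, 34 with all 9 controls as 1 group, 0 at the low and 0 at the mid concentration (308 and 783 at an unadjusted p under 0.05), and 0 to 17 when a chemical was left out.

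Of the 9 tested repair genes, 0 were called in each comparison. Against the water control 2 were called for the slope and 2 with all 9 controls as 1 group, and 0 to 1 when an MMS library was left out. Against the other 9 chemicals 1 was called for the slope (PARP1) and 1 with all 9 controls as 1 group (MGMT). OGG1 kept its sign in the MMS comparisons under the alternatives run, but with all 9 controls as 1 group it shrank from -0.58 to -0.31, from -0.53 to -0.22 and from -0.63 to -0.20. Other signs turned. With library totals APEX1 became 0.0553 against the water control, 0.0207 against the other DDI chemicals and 0.0267 for the class, and MPG 0.0339 for the class. With all 9 controls as 1 group, XRCC1 became 0.0296 against water, 0.0345 against the other 9 chemicals and 0.0764 against the other DDI chemicals, ALKBH3 -0.0513 against water and -0.0601 against the other DDI chemicals, and MPG 0.0713 and APEX1 0.0261 against the other DDI chemicals. For the class that setting gave -0.0406 for XRCC1, -0.0331 for PARP1 and -0.316 for UNG. The class value was -0.0647 for XRCC1 and 0.0158 for OGG1 at the low concentration, and 0.0257 for MPG and 0.224 for OGG1 at the mid concentration. With a chemical left out, the class value ranged from -0.0487 to 0.0506 for MPG, from -0.103 to 0.0815 for APEX1, from -0.139 to 0.125 for PARP1, from -0.199 to 0.0182 for OGG1 and from -0.0275 to 0.227 for UNG. The causes were not tested. OGG1 was below its control limit in 4 of 30 libraries, and in 1 with the mean of all 9 controls, while the count for MGMT stayed within 1.5 times of 10 under each alternative.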
